A study of Mus musculus with 6 samples.

Results

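The S100 and annexin genes encode 2 large families of calcium-binding proteins, and their transcripts were followed here in inguinal white adipose tissue (iWAT), a subcutaneous fat pad, of WT and Zip13-KO mice. Members were taken by name alone: a gene counted as one when its current mouse symbol was S100 followed by a, b, g or z and any number, or Anxa followed by a number, and when a probe on the array carried one of its RefSeq transcripts. That rule gave 28 genes, 16 of the S100 family and 12 annexins, out of 21368 annotated genes with a probe, and it used no measured value. Of the 28, 23 had a probe that the scanner software marked well above background on every array of 1 genotype or both, and were tested, 13 S100 genes and 10 annexins. The other 5 were S100a14, S100g, S100z, Anxa10 and Anxa13. The S100a14 probe was well above background on 4 of the 6 arrays, 2 of each genotype, and the probes of the other 4 genes on none.

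The study asked how loss of ZIP13, a zinc transporter of intracellular membranes encoded by Slc39a13, changes gene expression in iWAT. RNA of 3 WT and 3 Zip13-KO samples was hybridised to 6 one-colour Agilent mouse arrays. In the Zip13-KO mice exons 6 to 8 of the gene were replaced by a Neo cassette in the germ line, so that every cell type of the fat pad carries the deletion. The WT mice were littermates, both genotypes had been backcrossed to C57BL/6J, and all animals ate powdered food because the mutants have few teeth. The mice were 10 weeks old, while their sex and diet (standard or high-fat) were not given in the sources used here. The labels do not say that the samples of a genotype came from separate animals, so the p-values measure the spread between these samples, which may be technical.

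S100 proteins are small EF-hand proteins, mostly dimers, that expose a binding face for other proteins when calcium is bound. S100a8 and S100a9 pair to form calprotectin, an abundant protein of neutrophils and monocytes, whereas S100a4 and S100a6 are made by fibroblasts, macrophages and other migrating or dividing cells. Annexins have no EF-hand; they bind acidic phospholipids of membranes in the presence of calcium and take part in vesicle traffic, membrane repair and the ending of inflammation. The families meet in pairs such as S100a10 with Anxa2 and S100a11 with Anxa1.

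Most mouse S100 genes lie side by side on chromosome 3, and the 4 S100 genes that fell (below) are all in this cluster. Their promoters are printed because they lie close together and their transcripts moved the same way. Each is the 250 bases before the RefSeq start on GRCm38.p6, written 5′ to 3′ along the transcribed strand: S100a4 at chr3:90603520-90603769 on the plus strand, S100a6 at chr3:90612644-90612893 on the plus strand, S100a8 at chr3:90668821-90669070 on the plus strand and S100a9 at chr3:90695722-90695971 on the minus strand. Capitals mark matches, on either strand, to the letters searched for a C/EBP site (TTNNGNAA), an AP-1 site (TGANTCA), a PU.1 site (GAGGAAG) or a TATA box (TATAAA); in these 4 windows no match overlapped another.
S100a4: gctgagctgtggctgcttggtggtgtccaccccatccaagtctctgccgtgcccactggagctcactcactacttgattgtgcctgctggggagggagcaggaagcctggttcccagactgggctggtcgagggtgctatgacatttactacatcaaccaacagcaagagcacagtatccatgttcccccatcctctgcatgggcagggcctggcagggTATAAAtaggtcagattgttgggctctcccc
S100a6: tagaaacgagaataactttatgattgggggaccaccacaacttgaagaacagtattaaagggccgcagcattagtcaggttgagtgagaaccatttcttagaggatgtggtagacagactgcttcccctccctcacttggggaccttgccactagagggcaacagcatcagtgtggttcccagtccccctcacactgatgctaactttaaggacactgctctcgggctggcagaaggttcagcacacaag
S100a8: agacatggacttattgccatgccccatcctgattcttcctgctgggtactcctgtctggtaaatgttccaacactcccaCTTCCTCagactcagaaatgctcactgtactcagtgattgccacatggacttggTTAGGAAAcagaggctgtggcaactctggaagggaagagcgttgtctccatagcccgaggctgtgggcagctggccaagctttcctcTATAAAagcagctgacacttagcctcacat
S100a9: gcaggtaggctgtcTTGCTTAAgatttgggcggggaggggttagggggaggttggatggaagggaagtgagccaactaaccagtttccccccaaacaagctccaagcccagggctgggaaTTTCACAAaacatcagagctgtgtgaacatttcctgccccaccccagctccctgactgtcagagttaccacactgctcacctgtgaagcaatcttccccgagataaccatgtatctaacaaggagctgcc
In S100a8 the TATA letters began 30 bases before the start, the C/EBP letters 117 and the PU.1 letters 171 bases before it. S100a9 held C/EBP letters at 236 and 130 bases and no TATA letters, S100a4 held TATA letters at 31 bases, and S100a6 held none of the 4 motifs. Member promoters on chromosome 8, where Anxa10 lies, were left out, and those searched were 28 promoters for 21 of the 28 members. C/EBP letters were in 7 of these 28 (25.0%) against 36.8% of all 32817 promoters in the table, AP-1 letters in 3 (10.7%) against 6.75%, PU.1 letters in 2 (7.14%) against 10.6%, and TATA letters in 5 (17.9%) against 12.4%. The 3 promoters with AP-1 letters were those of Anxa2, S100a11 and S100a16. These matches describe letters in a window and not sites of binding.

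Over the 15302 genes tested, replicates of a genotype correlated at 0.986 to 0.993 for WT and 0.994 to 0.995 for Zip13-KO, and arrays of different genotypes at 0.960 to 0.984. Spots well above background made up 62.5 to 63.2% of each WT array and 58.8 to 60.4% of each Zip13-KO array. The Slc39a13 probe read 10.72 to 11.29 on the log2 scale in WT and 6.47 to 6.76 in Zip13-KO, a difference of -4.33 ± 0.17 (SE); where the probe lies relative to the deleted exons was not examined. The tissue's defining transcripts were present: all 8 adipocyte markers were well above background on all 6 arrays. On the slide, Zip13-KO replicate 1 shared its column with the WT arrays while replicates 2 and 3 had a column of their own, so column and genotype overlap in part. A gene was called when its limma p, adjusted by Benjamini-Hochberg over 15302 genes, was below 0.05 and its change exceeded 0.58 on the log2 scale. Of all genes tested 18.7% were called, 8.38% lower and 10.3% higher in Zip13-KO, and their median change was -0.001.

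Of the 13 S100 genes tested, 4 fell in Zip13-KO iWAT, S100a9, S100a4, S100a8 and S100a6, and 2 rose, S100b and S100a1. Of the 10 annexins 2 fell, Anxa1 and Anxa3, and none rose. A further 3 annexins and 2 S100 genes had an unadjusted p below 0.05 without a call, all lower than WT, beside 4359 such genes of 15302 in either direction. Called members were thus 46.2% of the S100 genes and 20.0% of the annexins tested. The median change was -0.44 for the S100 genes and -0.38 for the annexins on the log2 scale, and 19 of the 23 members had a value below 0. In 13 members every Zip13-KO array was below every WT array and in 3 every one was above, whereas 25.9% and 29.2% of all genes tested were separated in these directions. Taken relative to each gene's WT mean, the median S100 gene stood at 0.17, 0.03 and -0.15 on WT replicates 1 to 3 and at -0.48, -0.44 and -0.55 on Zip13-KO replicates 1 to 3. The median annexin stood at 0.08, 0.07 and -0.12 in WT and at -0.29, -0.44 and -0.23 in Zip13-KO. Neither family's medians overlapped between the genotypes. In RNA of a whole fat pad, fewer cells of a type and less RNA per cell cannot be told apart.

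**Figure D1:**
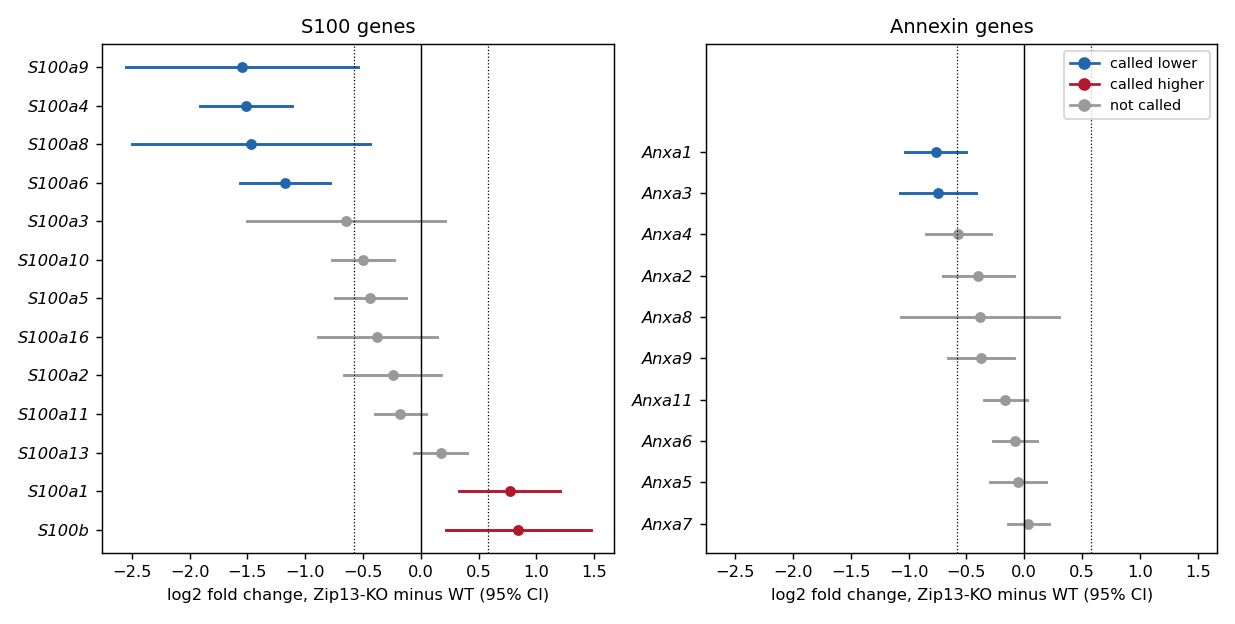
Log2 fold change of each tested S100 gene (left) and annexin gene (right), Zip13-KO minus WT, with its 95% confidence interval from limma; 3 arrays a genotype, blue called lower, red called higher, grey not called, dotted lines at 0.58 either side of 0. The S100 genes spanned -1.55 to 0.84, and the annexins -0.77 to 0.03.

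The calprotectin genes were among the members with the largest differences, and their Zip13-KO arrays were the least even. S100a9 read 13.77, 13.52 and 13.52 (log2 normalised intensity) on WT replicates 1 to 3 and 11.09, 12.34 and 12.74 on Zip13-KO replicates 1 to 3, a difference of -1.55 ± 0.41 (SE; limma adjusted p = 0.033). S100a8, its partner, read 12.12, 11.78 and 11.96 in WT and 9.49, 10.80 and 11.17 in Zip13-KO, a difference of -1.47 ± 0.42 (adjusted p = 0.041). For both genes all Zip13-KO arrays were below all WT arrays, and Zip13-KO replicate 1 was far lower than the other 2. The SD between Zip13-KO replicates was 0.86 for S100a9 and 0.88 for S100a8, against 0.15 and 0.17 in WT. Without Zip13-KO replicate 1 the differences were -1.06 and -0.97 and both genes were still called, with adjusted p of 0.032 and 0.034. Leaving out any 1 WT array or Zip13-KO replicate 2 ended both calls, with adjusted p between 0.067 and 0.094.

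Many, but not all, marker transcripts of the cells known for calprotectin were also lower in Zip13-KO. Of 13 tested macrophage and monocyte markers 10 fell and none rose (median -1.29), and their summed intensity was 104949 to 173139 in WT and 48666 to 65444 in Zip13-KO. Of 13 tested neutrophil markers 6 fell (median -1.15). Among the 6 was Cxcr1, whose probe was well above background on no Zip13-KO array, so its call rests partly on background readings. The sum of the 13, of which Csf3r made up at least 87.7%, was 67394 to 71798 in WT and 62934 to 67548 in Zip13-KO. Without Csf3r it was 7078 to 8311 against 3383 to 5106. On Zip13-KO replicates 1 to 3 the median neutrophil marker stood at -1.27, -1.21 and -0.47 from its WT mean. Some granule genes were, like S100a8 and S100a9, far lowest on replicate 1: Ngp read 3.25, 6.06 and 6.96 on Zip13-KO replicates 1 to 3. Mmp8 read 1.51, 4.42 and 5.21, and Camp, which encodes cathelicidin, 7.17, 8.34 and 8.37. These 3 genes were picked after their values were seen, and on 1 Zip13-KO array Ngp and Mmp8 were not well above background. Other granule genes of the list were not far lowest on replicate 1. On Zip13-KO replicates 1 to 3 Elane read 9.17, 9.18 and 9.32 and Ltf 6.70, 6.76 and 8.14. Retnlg read 8.14, 7.67 and 9.04, and Mmp9, whose mean was above that of WT, 8.32, 7.52 and 8.36. Ly6g, the surface marker that defines mouse neutrophils, had no named probe. The part of these cells in the change of S100a8, S100a9 and Anxa3 was not tested.

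S100a4, also known as fibroblast-specific protein and made by macrophages as well, read 14.61, 14.07 and 14.10 in WT and 12.67, 12.70 and 12.88 in Zip13-KO. It fell by 1.51 on the log2 scale (SE 0.16; limma adjusted p = 0.0049), which is 2.85-fold, with a wide gap between the genotypes. Its second probe gave -1.57. S100a6, or calcyclin, a protein of dividing and stromal cells, read 16.03, 15.83 and 15.50 in WT and 14.66, 14.43 and 14.74 in Zip13-KO. Its difference was -1.17 ± 0.16 (adjusted p = 0.0068), or 2.25-fold, and again the genotypes did not overlap. Leaving out each array in turn kept both calls, with differences of -1.61 to -1.34 for S100a4 and -1.32 to -1.05 for S100a6.

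S100a10, the light chain that joins Anxa2 in a complex at the plasma membrane, was at 13.61, 13.41 and 13.23 in WT and at 12.94, 12.94 and 12.87 in Zip13-KO. The arrays did not overlap and the adjusted p was 0.020, but the change of -0.50 ± 0.11 stayed under the fold threshold. S100a11, which binds Anxa1, differed by -0.18 (95% CI -0.40 to 0.04), its lowest WT array at 13.03 and its highest Zip13-KO array at 13.03, just below it. S100a5 differed by -0.44 with an adjusted p of 0.042, also under the fold threshold. The intervals of S100a3, S100a16 and S100a2 included 0, at -1.50 to 0.21, -0.89 to 0.14 and -0.67 to 0.18, and their genotypes overlapped. For S100a3 the overlap came with the widest WT spread of the family, from 5.68 to 7.15.

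S100a1, known for its action on calcium-handling proteins of muscle, rose: WT read 11.96, 12.66 and 12.40 and Zip13-KO 13.14, 13.03 and 13.16, a difference of 0.77 ± 0.18 (limma adjusted p = 0.023). Its second probe gave 0.82. S100b, a marker of glia that adipocytes also make, read 9.32, 8.76 and 8.44 in WT and 9.35, 9.93 and 9.77 in Zip13-KO, a difference of 0.84 ± 0.26 (adjusted p = 0.049). No arrays overlapped for either gene, but for S100b the highest WT array, replicate 1, and the lowest Zip13-KO array, replicate 1, were nearly level. The S100a1 call was lost without WT replicate 1, where the change was 0.58 and just under the threshold, and without any 1 Zip13-KO array, where the adjusted p was 0.062 to 0.076. Of the leave-one-out fits, the S100b call held in the one without WT replicate 1 and was lost in the others. S100a13, which takes part in the release of signal proteins that lack a leader sequence, showed the smallest S100 difference, with 12.95, 12.96 and 12.71 in WT and 13.05, 13.00 and 13.07 in Zip13-KO, 0.17 higher (adjusted p = 0.20).

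Of 11 markers of stromal progenitors and fibroblasts 5 fell and all were below 0 (median -0.75), with a summed intensity of 283476 to 621720 in WT and 236122 to 283579 in Zip13-KO. The sum was nearly equal on WT replicate 3 and Zip13-KO replicate 3, and the collagen and decorin transcripts Col1a1, Col1a2 and Dcn overlapped between the genotypes. The other 8 markers were, like S100a4, S100a6 and Anxa1, higher on every WT array than on any Zip13-KO array. Of all genes tested 25.9% were separated in this direction. The gaps differed in width. Ly6a read 14.46 on WT replicate 3 and at most 13.94 in Zip13-KO, whereas Cd34 read 13.88 and at most 13.87, and Pi16 14.20 and at most 14.18. Adipocyte markers went the other way, with 3 of 8 higher, all above 0 and sums of 346642 to 454289 in WT against 529105 to 559128 in Zip13-KO. All 6 markers of brown or beige adipocytes rose (median 2.22). Of 9 tested Schwann cell markers 1 rose (sum 20653 to 23088 against 23372 to 24308), and of 8 tested skeletal muscle markers none was called (1989 to 4285 against 2603 to 8636). The muscle sum was highest on Zip13-KO replicate 3 and lowest on WT replicate 2. The part of these cell types in the changes of S100a4, S100a6, Anxa1, S100a1 and S100b was not tested. Lymph node markers held no gene called lower (10 tested, median -0.45, sum 89641 to 109573 against 62750 to 71153). All 10 were nevertheless below 0. In 9 of them every Zip13-KO array was below every WT array, beside 25.9% of all genes tested. Endothelial markers (7 tested, 2 higher) and markers of mesothelium (4 tested, 1 higher), epidermis (6 tested) and mammary epithelium (4 tested) also held no gene called lower. The milk protein genes Csn2, Csn3 and Wap were not kept.

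**Figure D2:**
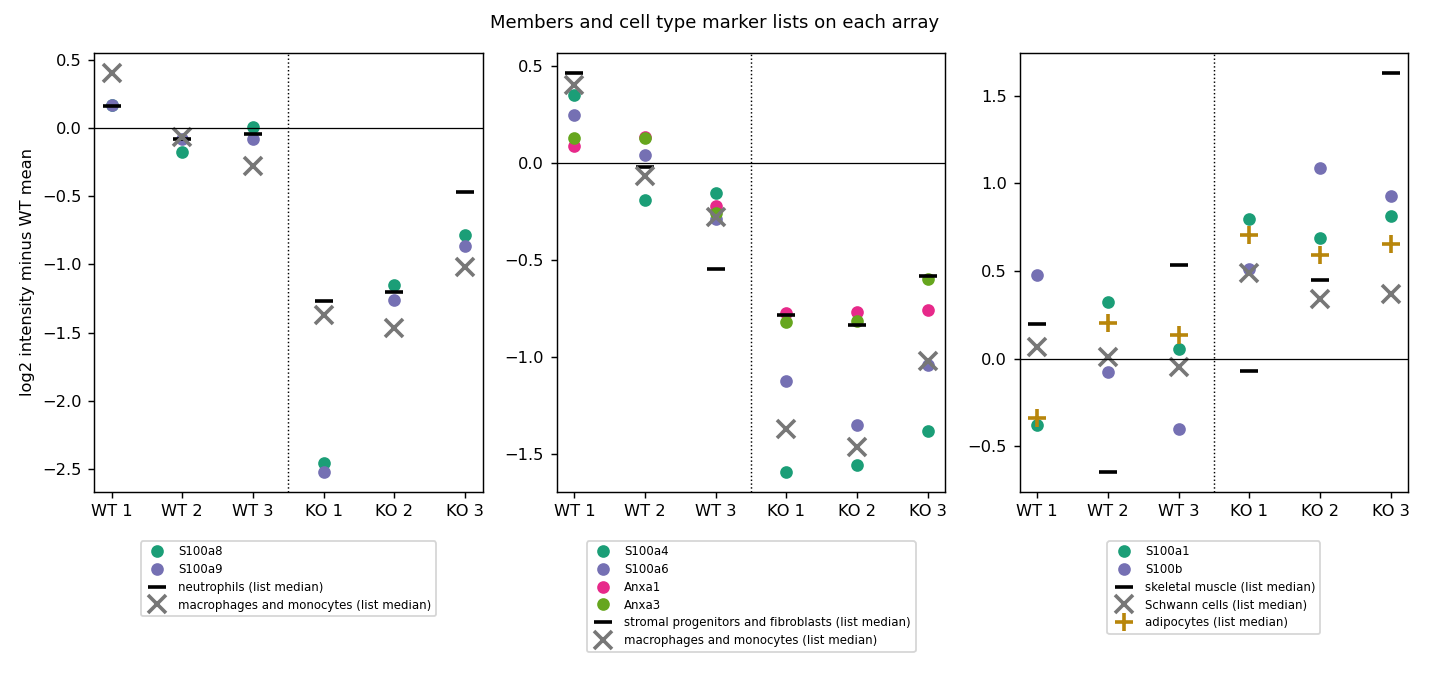
Log2 intensity of called members (filled circles) and median of cell type marker lists (other symbols) on each array, both minus their WT mean; WT and Zip13-KO replicates 1 to 3 on the x axis of each panel. S100a8 and S100a9 reach about -2.5 on Zip13-KO replicate 1, where the neutrophil list is at -1.27. S100a1, S100b, the adipocyte list and the Schwann cell list are above all WT arrays on each Zip13-KO array, and the skeletal muscle list overlaps.

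**Figure D3:**
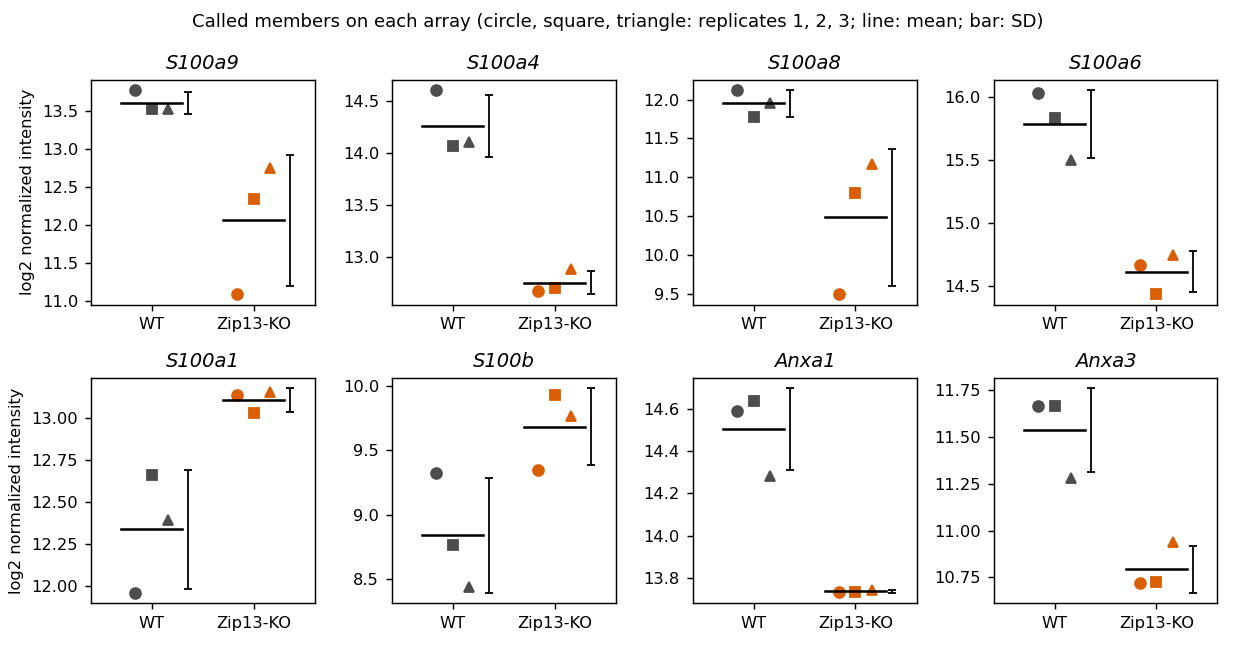
Log2 normalised intensity of the 8 called members on each array (y axes differ between panels and do not start at 0), WT grey and Zip13-KO orange, with the mean and SD of 3 arrays. The genotypes do not overlap in any panel; in S100a8 and S100a9 Zip13-KO replicate 1 (circle) is lowest, at 9.49 and 11.09.

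Anxa1, the glucocorticoid-induced annexin that acts through formyl peptide receptors, read 14.59, 14.64 and 14.28 in WT and 13.73, 13.73 and 13.74 in Zip13-KO. Its difference was -0.77 ± 0.11 (limma adjusted p = 0.0073), and its second probe gave -0.84. Anxa3, an annexin abundant in neutrophils, read 11.67, 11.67 and 11.28 in WT and 10.72, 10.72 and 10.94 in Zip13-KO, a difference of -0.75 ± 0.14 (adjusted p = 0.012). Both were separated by genotype and both stayed called when any 1 array was left out, with Anxa3 closest to the threshold at an adjusted p of 0.050 without Zip13-KO replicate 1. The medians of the macrophage, neutrophil and stromal marker lists were also lower in Zip13-KO.

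Anxa4, an annexin of epithelia and secretory membranes, came next at 12.14, 11.94 and 11.74 in WT and 11.31, 11.34 and 11.46 in Zip13-KO. It did not overlap and had an adjusted p of 0.016, but its change of -0.57 ± 0.12 fell just short of the fold threshold. Anxa2, the partner of S100a10, read 15.90, 15.74 and 15.52 in WT and 15.48, 15.28 and 15.22 in Zip13-KO. These differed by -0.40 (95% CI -0.70 to -0.09; adjusted p = 0.053), separated but not called. Anxa9 was close to it at -0.37 (adjusted p = 0.051) and Anxa11 at -0.16 (adjusted p = 0.14), both separated. Anxa8 overlapped, at -0.38 (95% CI -1.06 to 0.30).

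Among the annexins Anxa7, Anxa5 and Anxa6 showed the smallest differences. Anxa7, which is linked to vesicle fusion, read 10.66, 10.77 and 10.67 in WT and 10.78, 10.74 and 10.69 in Zip13-KO, 0.03 higher (95% CI -0.14 to 0.21). Its second probe gave 0.23, with every Zip13-KO array above every WT array, and the mean over its probes gave 0.13. Anxa5, the phosphatidylserine binder used to stain dying cells, differed by -0.05 (-0.29 to 0.19) and Anxa6, which binds late endosomes, by -0.08 (-0.27 to 0.11), with the signs turned, to 0.094 and 0.086, when arrays were scaled on their 75th percentile.

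Along chromosome 3 the order of the cluster is S100a1, S100a13, S100a14, S100a16, S100a3, S100a2, S100a4, S100a5, S100a6, S100a8 and S100a9. The member with a positive call, S100a1, lies at one end next to S100a13, the other tested member of the cluster above 0. All 8 tested genes from S100a16 on were below 0, and the called ones lay between S100a4 and S100a9, with S100a5 among them not called. The only other coding gene inside this stretch, S100a7a, which the naming rule leaves out, had 1 probe and was not tested. S100a11 and S100a10 are neighbours 56 coding genes further on. Of the members outside chromosome 3, S100b (chromosome 10) rose, and Anxa1 (chromosome 19) and Anxa3 (chromosome 5) fell.

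**Figure D4:**
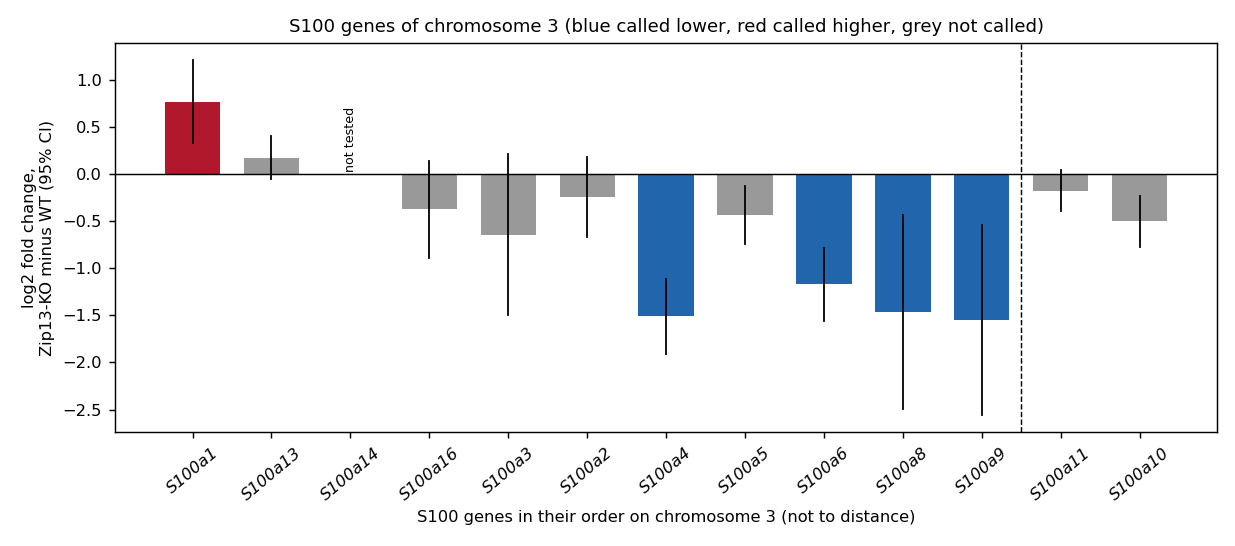
Log2 fold change (bars from 0) of the S100 genes of chromosome 3 in their order along it, Zip13-KO minus WT, with 95% confidence intervals; the dashed line marks the gap of 56 coding genes before S100a11. S100a1 is the bar that rose and S100a4, S100a6, S100a8 and S100a9 are those that fell.

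Genes that act with the families were taken from 7 lists of 69 genes, of which 55 were tested, 9 fell and 4 rose. That is 23.6% called, beside 18.7% of all genes tested, with a median change of -0.20. With probes required well above background on all 6 arrays, 6 partner genes fell and 4 rose. Of 8 receptors for S100 proteins only Cd36, a fatty acid transporter that also binds S100a8 with S100a9, was called, at 0.71 (limma adjusted p = 0.027). Tlr4 differed by -0.42 and Ager, the receptor for advanced glycation end products, by -0.14 without a call. Of 11 proteins that S100 family members bind, Iqgap1, a scaffold of the cell cortex, fell by 0.80 (adjusted p = 0.0064) and Pgm1, a phosphoglucomutase, rose by 0.65 (adjusted p = 0.029).

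The formyl peptide receptors of Anxa1 both fell. Fpr1 read 8.93, 8.63 and 7.02 in WT and 3.77, 3.95 and 4.68 in Zip13-KO, where only 1 of 3 arrays was well above background, so that its size rests partly on background readings; the fitted difference was -4.06 ± 0.53 (limma adjusted p = 0.0065). Fpr2 read 8.59, 8.61 and 7.82 in WT and 5.32, 5.27 and 6.07 in Zip13-KO, a difference of -2.78 ± 0.30 (adjusted p = 0.0050). Both are receptors of neutrophils and macrophages, many of whose markers were lower as given above. The part of these cells was not tested. The other 6 tested annexin partners were not called.

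Anxa2 and S100a10 gather plasminogen and its activator on cell surfaces. Of 6 tested genes of plasminogen activation, Plat, tissue plasminogen activator, fell by 1.31 (adjusted p = 0.033) and Plaur, the urokinase receptor, by 1.06 (adjusted p = 0.0068), and the list median was -0.65. Of 6 tested genes of membrane repair, Dysf (dysferlin) rose by 0.98 (adjusted p = 0.0078) and Ehd2, a protein of caveolae, by 0.90 (adjusted p = 0.028). Myof (myoferlin) was called lower (adjusted p = 0.046) but its probe did not clear background on the Zip13-KO arrays, so no fold is given. Of 16 tested EF-hand proteins outside the S100 family, 3 fell: Ncs1, a neuronal calcium sensor, by 1.48, Efhd2, a regulator of actin in immune cells, by 1.12 and Hpcal1 by 0.73. The Ncs1 probe was well above background on only 2 of 3 Zip13-KO arrays, so its size rests partly on a background reading. None of the 16 rose, and their median change was -0.36. None of the 7 fused-type S100 genes, which act in skin, was tested.

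With the slide column as a term, the genotype difference rests on Zip13-KO replicate 1 against the 3 WT arrays, which share its column. In that fit no member was called, and of all genes 7 were lower and 0 higher. The 6 members that fell kept their direction, at -2.52 for S100a9, -2.46 for S100a8, -1.59 for S100a4, -1.12 for S100a6, -0.77 for Anxa1 and -0.82 for Anxa3, with adjusted p between 0.058 and 0.083. S100a1 was at 0.80 (adjusted p = 0.13) and S100b at 0.51 (adjusted p = 0.35).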

How the data were processed

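Total RNA of iWAT was labelled with Cy3 and hybridised to Agilent SurePrint G3 Mouse GE 8x60K arrays, 3 WT and 3 Zip13-KO, grouped by the sample labels. The authors deposited scanner files of Feature Extraction 11.5.1.1, whose processed signal is a background-subtracted intensity on a linear scale, and a table of log2 values normalised by the authors, used here only as an alternative. The intensity of 59305 non-control spots was put on the log2 scale, flagged spots were left out and spots of a probe averaged. The probe values were then quantile normalised. Probes were named through RefSeq transcripts of GRCm38.p6 (28331 of 55681 probes), kept when well above background on 3 of 3 arrays of a genotype, and reduced to the probe with the highest mean per gene; 36 probes named members and 30 were kept. limma 3.58.1 in R 4.3.3 (statmod 1.5.0) was fitted to 15302 genes, with Benjamini-Hochberg adjustment and the study's fold threshold of 0.58; the script was tested on simulated data. Precision is limited by 3 arrays a genotype.

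No spot of these arrays was saturated. Levels of different probes were not compared, apart from the marker sums and the share of Csf3r in the neutrophil sum. Text names every tested member, with all array values for called members, the smallest change and the 3 smallest adjusted p of each family, and the called genes of each partner list. The members, partner lists and marker lists were chosen with earlier results of these data known. 20 alternatives were computed: scaling, background correction, the deposited table, filter, probe choice, thresholds, test, replicate block, slide column and each array left out.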

Additional observations from a re-analysis of the deposited data

How the results depend on the processing

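The counts were 4 S100 genes lower and 2 higher, 2 annexins lower and 0 higher, and 9 partner genes lower and 4 higher. Scaling on the 75th percentile, both other background corrections, the deposited table, the stricter filter, the mean over probes and the trended prior left the member counts as they were. Without a filter 3 S100 genes were lower and 1 higher, and 7 partner genes lower and 1 higher; S100a8 (adjusted p = 0.081) and S100a9 (0.067) lost their calls, and 1 of the 3 was a gene that the filter leaves out. At an adjusted p under 0.01 there were 2 S100 genes lower and 0 higher, 1 annexin lower and 1 partner gene higher. With no fold threshold 6 S100 genes were lower and 2 higher, and 3 annexins were lower. In that setting 17 partner genes were lower and 7 higher, and of all genes 15.2% were lower and 19.3% higher. The methods' t-test, which the study combined with a median-ratio test and which was run here alone, gave 1 S100 gene higher unadjusted, and 2 lower, 0 higher and 1 partner gene higher after Benjamini-Hochberg. With the slide column as a term there were 0 S100 genes lower or higher, 0 annexins lower, and 0 partner genes lower or higher, the contrast then resting on 1 Zip13-KO array.

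Leaving out each array in turn gave 2 to 5 S100 genes lower, 0 to 1 higher, 2 to 3 annexins lower, 7 to 10 partner genes lower and 1 to 4 higher, with medians of -0.60 to -0.28 for S100 genes and -0.44 to -0.24 for annexins. S100a3, S100a10, S100a16 and Anxa4 were called lower without WT replicate 3, and Anxa4 also without Zip13-KO replicate 3. Replicate numbers did not pair the samples (correlations of same-numbered deviations -0.02, 0.04 and -0.08); with the number as a replicate block 2 S100 genes were lower and 0 higher and 1 partner gene higher. Signs turned for Anxa6 (0.086) and Anxa5 (0.094) on the 75th percentile, for Anxa5 (0.035) and S100a2 (0.013) with the slide column, and for Anxa5 without WT replicate 2 (0.011) or Zip13-KO replicate 2 (0.020), its leave-one-out range being -0.094 to 0.020. Over the 23 members and 20 alternatives 404 of the values kept direction and call, 42 lost a call, 8 gained one and 6 turned sign.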
